A study of Mus musculus with 11 samples.

Results

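The IRE1 and XBP1 arm of the unfolded protein response was examined through 7 genes listed by symbol: *Ern1*, *Xbp1*, *Dnajb9*, *Ficd*, *Bloc1s1*, *Traf2* and *Map3k5*. The list applied no threshold to the values, but it was drawn up with earlier results of these data known, among them those of *Dnajb9* and *Ficd*. All 7 of them were found among the 18667 genes in the files, and all 7 were among the 16169 genes tested. RNA-Seq libraries came from 5 Atf6+/+ and 6 Atf6-/- whole cochleae, labelled WT and ATF6KO, with 1 library for each cochlea. The mice were 2 months old, of either sex and on the C57BL/6J background, so both groups share its *Cdh23ahl* allele, a known cause of age-related hearing loss. The Atf6-/- mice had a premature stop codon in exon 4 of *Atf6* and made no ATF6 protein, and the Atf6+/+ mice were their controls. No mouse had received a drug or a stressor, as far as the labels say.

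When misfolded proteins build up in the endoplasmic reticulum (ER), 3 sensors in its membrane respond: IRE1, ATF6 and PERK. IRE1 (encoded by *Ern1*) is a kinase and an RNase. Its RNase cuts a short stretch out of the *Xbp1* mRNA, and the rejoined message encodes XBP1s, a transcription factor for chaperone, translocation and ER-associated degradation (ERAD) genes. The same RNase degrades other ER-bound mRNAs, known as RIDD substrates, and the kinase face of IRE1 recruits the adaptor TRAF2 and the kinase ASK1 to JNK signaling. ATF6 is itself a transcription factor after cleavage, and *Xbp1* is one of its known target genes, so the genotype removes one known input to this arm.

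The cut that defines the pathway lies in coding exon 4 of *Xbp1*. The stretch removed by IRE1 was located in the annotated transcript by its pair of cut sites, both matching CNGCAGC, whose cut points lie 26 bases apart, and only 1 such pair was found. It is shown with 20 bases on each side, at chr11:5524259-5524324 of GRCm38 (plus strand, GENCODE vM21), with the removed bases in capitals.
Xbp1: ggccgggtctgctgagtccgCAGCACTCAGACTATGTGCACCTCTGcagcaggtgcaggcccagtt
Removing these 26 bases shifts the reading frame, so that an open frame of 267 codons becomes one of 371 codons. The removed stretch is 1.22% of the 2129-base transcript. The *Xbp1* values below are 1 number per gene and library, in which the cut and the uncut message are counted together, so they say nothing of how much *Xbp1* was spliced.

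Expression is given as FPKM, a count of fragments scaled to the length of the gene and to the size of the library, so that levels can be compared between genes. Differences are log2 fold changes, Atf6-/- over Atf6+/+, on the log2(FPKM + 0.1) scale, which slightly understates the change of low genes. *Atf6* itself was checked first. It ranged from 8.25 to 10.6 FPKM in the Atf6+/+ libraries and from 3.83 to 4.59 FPKM in the Atf6-/- libraries, which is -1.13 on the log2 scale (SE 0.084, adjusted p = 5.17e-05 by limma), so all 11 libraries fitted their labels. Markers of the cochlea were present: each of the 6 genes on the outer hair cell, hair cell, stria vascularis, spiral ligament, supporting cell and spiral ganglion neuron lists was detected. Markers of bone marrow cells were present as well, and lower in the Atf6-/- libraries. All 8 B and plasma cell, all 8 neutrophil and all 6 erythroid markers had a lower mean there, 13 of them at an unadjusted p of at most 0.05. Summed neutrophil markers ranged from 249 to 3077 FPKM in Atf6+/+ and from 90.0 to 1193 FPKM in Atf6-/- libraries. Summed erythroid markers ranged from 2425 to 21630 FPKM and from 1379 to 4591 FPKM, and those of B and plasma cells from 10.4 to 30.6 FPKM and from 7.63 to 13.0 FPKM. A bone marrow score, the mean log2 value of these 3 lists, had a range of 2.95 to 5.06 in Atf6+/+ libraries and of 1.41 to 3.35 in Atf6-/- libraries (exact two-sided permutation test, p = 0.0260). All 6 osteoblast markers and 5 of 6 macrophage markers had a lower mean in Atf6-/- libraries as well, none at the unadjusted p. All 6 spiral ligament fibrocyte markers had a higher mean there, 2 of them at that p, as had 5 of 6 outer hair cell markers, 2 at that p, and 5 of 6 supporting cell markers, 1 at that p. Of the hair cell markers 4 had a higher mean and 2 a lower one, 1 of the latter at that p, and their sum ranged from 664 to 841 FPKM in Atf6+/+ and from 552 to 751 FPKM in Atf6-/- libraries. Stria vascularis markers were higher in mean for 5 of 6 and spiral ganglion neuron markers lower for 5 of 6, none at that p. In whole tissue, fewer cells of a type and less RNA per cell cannot be told apart.

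None of the 7 genes passed the test across all genes. Adjusted p-values (limma, Benjamini-Hochberg over 16169 genes) ranged from 0.374 to 0.960, in a comparison in which 11 genes, 0.068% of those tested, had an adjusted p under 0.05. At an unadjusted p of at most 0.05, 2 of the 7 genes were higher in Atf6-/- cochleae, *Dnajb9* and *Ficd*, and none was lower. Over all genes tested, 4.48% were higher and 5.37% were lower at that p, 9.85% in all. The difference was above 0 for 6 of the 7 genes and below 0 for *Bloc1s1*. Their median log2 fold change was 0.07, beside -0.01 over all genes tested.

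**Figure D1:**
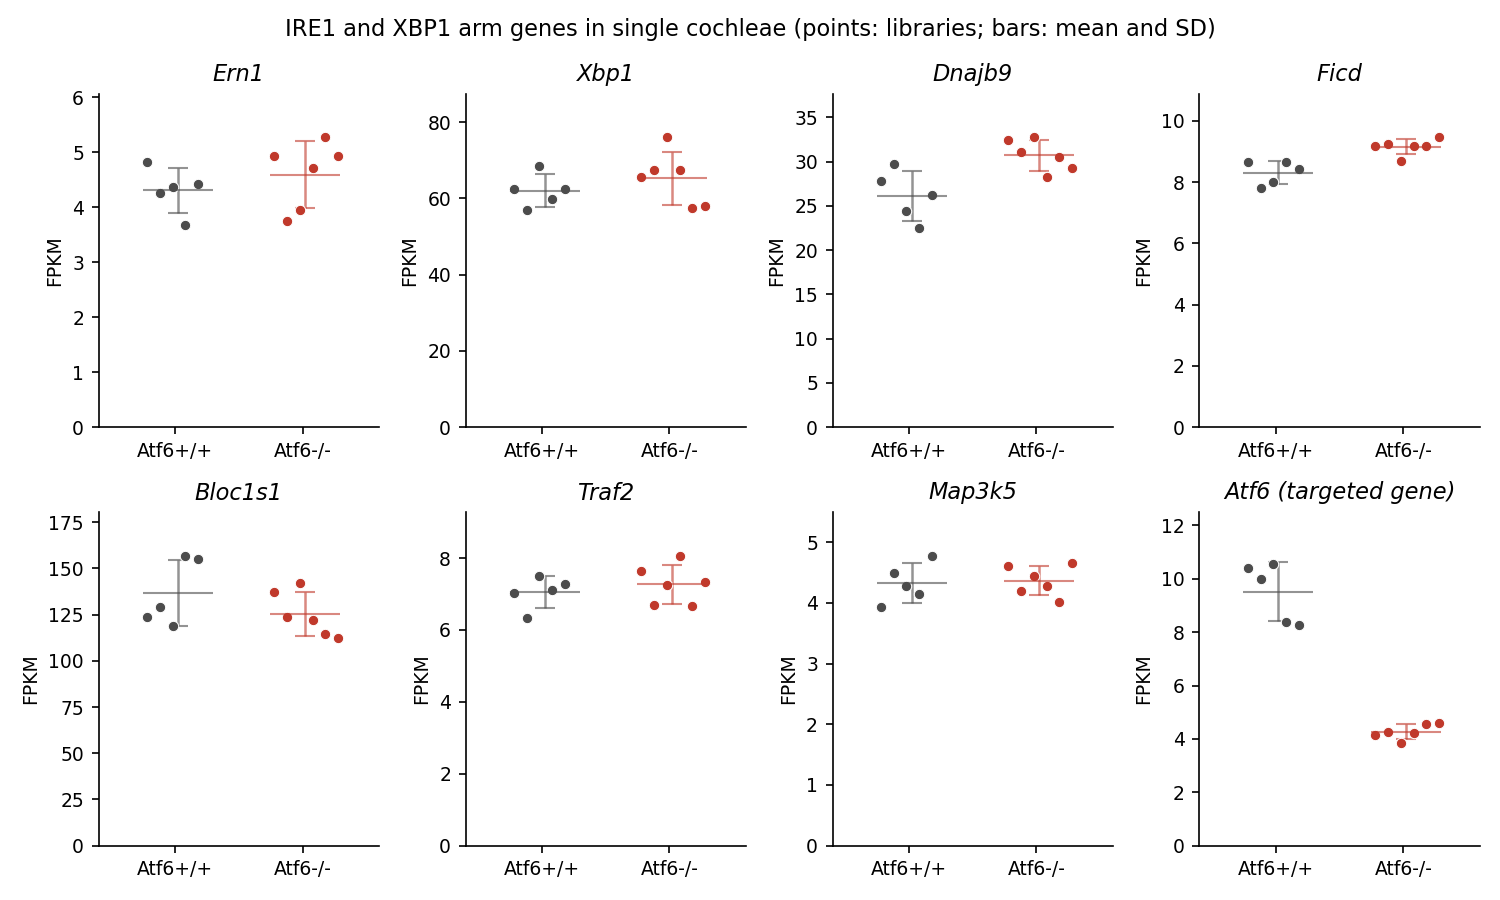
FPKM of the 7 arm genes and of the targeted gene Atf6 in each of the 11 cochleae (points), with the mean and SD of each genotype (bars), on linear axes that start at 0. Ficd is the only arm gene in which every Atf6-/- library, from 8.70 FPKM up, lies above every Atf6+/+ library, up to 8.66 FPKM.

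*Ern1* (NCBI gene 78943, chromosome 11), the gene of the sensor, was measured at 4.82, 4.27, 4.37, 3.67 and 4.42 FPKM in the Atf6+/+ libraries. In the 6 Atf6-/- libraries its lowest value was 3.76, its median 4.82 and its highest 5.28 FPKM. Of the 6 Atf6-/- libraries, 3 lay above every Atf6+/+ library and 3 lay within the Atf6+/+ range. Its log2 fold change was 0.09 (95% CI -0.14 to 0.31, limma unadjusted p = 0.420), and the exact two-sided permutation test gave p = 0.413. In percent of the Atf6+/+ level the interval ran from -9.11% to 23.9%. *Ern2*, the epithelial paralog of the sensor, had means of 0.002 and 0.010 FPKM in the Atf6+/+ and the Atf6-/- libraries and was too low to be tested.

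*Xbp1* (NCBI gene 22433, chromosome 11), whose message IRE1 cuts, stood at 62.4, 56.9, 68.6, 59.8 and 62.5 FPKM in the Atf6+/+ libraries. In the Atf6-/- libraries it ran from 57.4 through a median of 66.4 to 76.1 FPKM. The lowest of the 11 values was in Atf6+/+ and the highest in Atf6-/- libraries, and the rest were mixed. The log2 fold change was 0.07 (95% CI -0.09 to 0.23, limma unadjusted p = 0.370; exact p = 0.411 by permutation). In percent of the Atf6+/+ level the interval ran from -6.21% to 17.3%. With all 7 genes ranked by level, *Xbp1* was second in every library.

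*Dnajb9* (NCBI gene 27362, chromosome 12) encodes ERdj4, an ER co-chaperone that is a known XBP1s target and that holds IRE1 inactive together with the chaperone BiP. It was measured at 27.9, 29.7, 24.4, 22.5 and 26.2 FPKM in the Atf6+/+ libraries. In the Atf6-/- libraries it ran from 28.3 through a median of 30.8 to 32.8 FPKM. Only Atf6+/+ replicate 2, at 29.7 FPKM, reached into the Atf6-/- range. The Atf6+/+ mean was 26.1 ± 2.82 FPKM (SD, n = 5), and the Atf6-/- mean was 30.8 ± 1.75 FPKM (SD, n = 6). The log2 fold change was 0.24 (SE 0.070, 95% CI 0.09 to 0.39), or 1.18-fold, with a limma unadjusted p of 0.00497 and an adjusted p of 0.374. The exact permutation test gave p = 0.0108, where the smallest p that the 462 splits into 5 and 6 libraries allow is 0.00216. By limma p it ranked 214 of the 16169 genes. Without Atf6+/+ replicate 2 its groups did not overlap.

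*Dnajb9* moved with the bone marrow markers. The Atf6+/+ libraries with the highest scores, replicates 3 and 4 (5.06 and 4.09), had its lowest values, 24.4 and 22.5 FPKM. The Atf6+/+ library with the lowest score, replicate 2 (2.95), had the highest value of its group. With the genotype means taken off, Pearson's r between *Dnajb9* and the score was -0.74 over the 11 libraries (permutation p = 0.00826, 0.0578 after adjustment over the 7 genes). Spearman's rho was -0.79 (permutation p = 0.00499, adjusted 0.0349), and r was -0.81 without the 2 libraries with the most extreme scores. With the score as a covariate, the difference of *Dnajb9* was 0.10 on the log2 scale (95% CI -0.06 to 0.26, limma unadjusted p = 0.187), against 0.24 without it. The score itself was lower in Atf6-/- libraries, so what goes with genotype and what goes with the score cannot be fully told apart in such a fit. The relation of *Dnajb9* to the score was looked for after the values had been seen. None of the other 6 genes had an adjusted p under 0.05 in it, with r between -0.40 and 0.37.

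**Figure D2:**
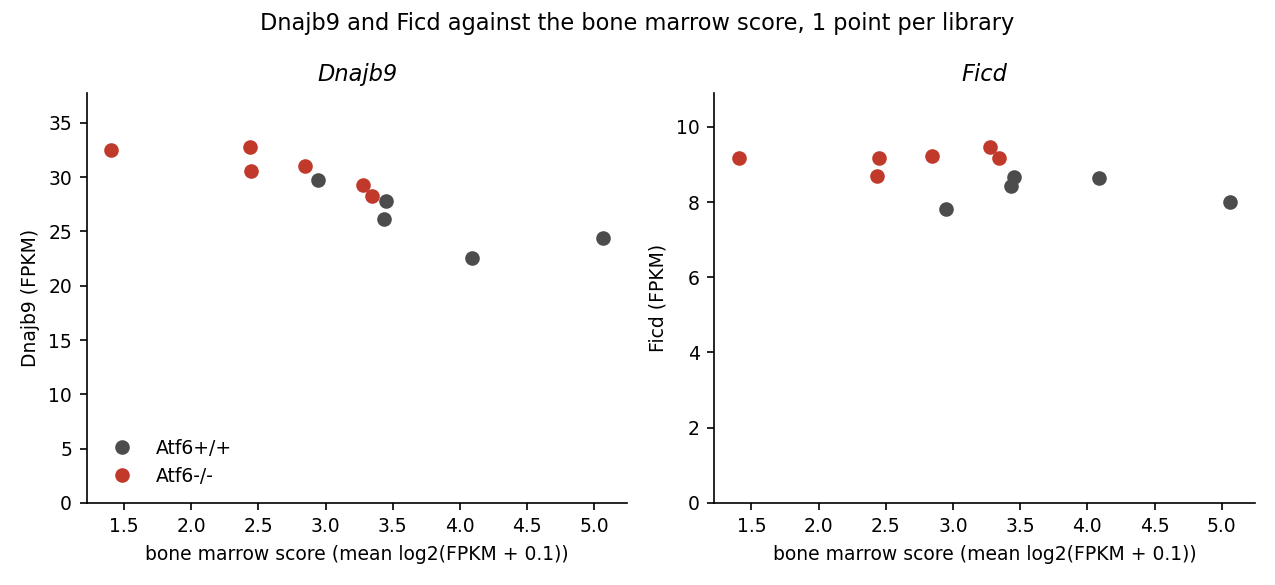
FPKM of Dnajb9 (left) and Ficd (right) against the bone marrow score, the mean log2(FPKM + 0.1) of neutrophil, erythroid and B and plasma cell markers, with 1 point per library and vertical axes that start at 0. Dnajb9 is lower where the score is higher in both genotypes, and Ficd shows no such slope (r = 0.12 with the genotype means taken off).

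*Ficd* (NCBI gene 231630, chromosome 5) encodes an ER enzyme that attaches AMP to BiP and takes it off again, and so sets how much of this chaperone is active. It was measured at 8.66, 7.82, 8.01, 8.65 and 8.42 FPKM in the Atf6+/+ libraries. In the Atf6-/- libraries it ran from 8.70 through a median of 9.18 to 9.47 FPKM. The groups did not overlap, by a margin of only 8.70 against 8.66 FPKM. Over all genes tested, 0.643% had groups without overlap and higher in Atf6-/- cochleae, and 0.606% lower. The Atf6+/+ mean of *Ficd* was 8.31 ± 0.38 FPKM (SD, n = 5), and its Atf6-/- mean was 9.16 ± 0.25 FPKM (SD, n = 6). The log2 fold change was 0.14 (SE 0.049, 95% CI 0.03 to 0.25), or 10.1% higher. Its limma unadjusted p was 0.0151, its adjusted p 0.428 and its exact permutation p 0.00433. With the score as a covariate its difference was 0.15 on the log2 scale, at a limma unadjusted p of 0.0504. After rescaling to TPM or by median of ratios the groups of *Ficd* overlapped, while its log2 difference was 0.20 and 0.15, at unadjusted p-values of 0.00678 and 0.0135 by limma's model across all genes. The separation, but not the difference, thus rests on the scaling between libraries. *Ficd* also varied least among the 7 genes, with a coefficient of variation of 4.58% in Atf6+/+ and 2.74% in Atf6-/- cochleae.

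The promoters of these 2 genes, the only ones of the 7 at an unadjusted p of at most 0.05, are shown because ATF6 and XBP1s act through known letters in DNA. Each window runs from 250 bases before to 50 bases after the annotated start (RefSeq, GRCm38.p6), with every CCAAT and CCACG, on either strand, in capitals. The first lies at chr12:44210019-44210318 on the minus strand, the second at chr5:113735532-113735831 on the plus strand.
Dnajb9: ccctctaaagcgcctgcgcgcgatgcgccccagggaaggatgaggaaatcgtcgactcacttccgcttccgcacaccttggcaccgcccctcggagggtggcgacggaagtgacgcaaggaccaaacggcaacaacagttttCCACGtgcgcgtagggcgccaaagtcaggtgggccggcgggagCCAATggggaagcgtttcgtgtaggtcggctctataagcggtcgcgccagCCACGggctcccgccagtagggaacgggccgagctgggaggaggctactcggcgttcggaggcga
Ficd: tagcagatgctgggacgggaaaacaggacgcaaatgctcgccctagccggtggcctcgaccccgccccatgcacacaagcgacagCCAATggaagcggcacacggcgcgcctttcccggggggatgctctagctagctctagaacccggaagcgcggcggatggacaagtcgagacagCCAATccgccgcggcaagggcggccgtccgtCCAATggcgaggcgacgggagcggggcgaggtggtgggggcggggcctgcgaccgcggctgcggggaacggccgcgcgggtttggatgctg
The *Dnajb9* window held 2 CCACG and 1 CCAAT, and the *Ficd* window held 3 CCAAT and no CCACG. Of all 32851 such windows, 32.8% held a CCACG and 37.4% a CCAAT on either strand. Neither window held the ER stress response element ERSE (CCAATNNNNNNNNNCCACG, in which both shorter motifs are contained, found in 0.119% of windows). Neither held ERSE-II (ATTGGNCCACG, which overlaps CCACG and the reverse complement of CCAAT, 0.0365% of windows) nor the core of the unfolded protein response element (TGACGTGG, 0.676% of windows), on either strand. The windows of the other 5 genes held none of these 3 elements, while that of *Hspa5*, the BiP gene, held 1 ERSE. The shorter ACGT, contained in TGACGTGG and found in 30.9% of windows, was in the *Dnajb9* window from -106 to -103 relative to the start. It was also in the windows of *Xbp1*, *Bloc1s1*, *Traf2* and *Hspa5*, and not in those of *Ficd*, *Ern1* and *Map3k5*. Such matches describe the letters of these windows only.

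*Bloc1s1* (NCBI gene 14533, chromosome 10), a subunit of the complexes BLOC-1 and BORC, is the best known RIDD substrate. It is also the most abundant of the 7 genes, first in every library. RIDD sites are commonly built around the bases CTGCAG. In the 550-base *Bloc1s1* transcript (GENCODE vM21, GRCm38) these 6 bases occurred 4 times, 3 of them in coding sequence, and each coding match is shown in capitals in its 30-base window.
Bloc1s1 window 1: gaacgcaaggagCTGCAGgagaagaggagg
Bloc1s1 window 2: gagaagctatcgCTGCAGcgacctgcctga
Bloc1s1 window 3: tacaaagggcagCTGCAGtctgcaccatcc
They lie on the minus strand at chr10:128923376-128923381 in exon 1, chr10:128922697-128922702 in exon 2 and chr10:128920012-128920017 in exon 4. Of 2662 protein-coding transcripts within 50 bases of this length, 41.9% held CTGCAG at least once and 0.564% held it 4 times or more. A match is not by itself a site that IRE1 cuts.

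*Bloc1s1* was measured at 124, 129, 119, 157 and 155 FPKM in the Atf6+/+ libraries. In the Atf6-/- libraries it ran from 112 through a median of 123 to 142 FPKM. Replicates 4 and 5 of Atf6+/+ lay above every Atf6-/- library, and the other 3 lay within the Atf6-/- range. The log2 fold change was -0.12 (95% CI -0.32 to 0.07, limma unadjusted p = 0.190; exact p = 0.229 by permutation), and -0.22 (95% CI -0.47 to 0.02, p = 0.0710 by limma) with the score as a covariate. *Bloc1s1* overlaps *Rdh5* in the GRCm38 annotation, a gene with a mean of 15 FPKM here, and reads of the overlap may have been assigned to either. Of 10 mRNAs known as RIDD substrates, none was higher or lower at the unadjusted p. Their median log2 fold change was -0.05, with 4 above 0 and 6 below. With the score as a covariate *Scara3*, named for that value, was lower at a limma unadjusted p of 0.0333, beside 3.20% of all genes that were lower in that fit. Of the other 7 subunits of BLOC-1 only *Bloc1s2* was lower at the unadjusted p, with means of 21.3 and 18.2 FPKM and a difference of -0.23 on the log2 scale (adjusted p = 0.400 by limma), and -0.19 with the score as a covariate (unadjusted p = 0.0749 by limma). That is 1 of the 8 genes on the list, beside 5.37% of all genes that were lower. The BLOC-1 list had 1 gene above 0 and 7 below, with a median of -0.06.

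*Traf2* (NCBI gene 22030, chromosome 2), the adaptor, was measured at 7.02, 6.32, 7.50, 7.10 and 7.28 FPKM in the Atf6+/+ libraries, and from 6.67 through a median of 7.29 to 8.07 FPKM in the Atf6-/- libraries. *Map3k5* (NCBI gene 26408, chromosome 10), which encodes ASK1, was measured at 3.94, 4.50, 4.27, 4.14 and 4.78 FPKM, and from 4.02 through a median of 4.36 to 4.65 FPKM. For both genes the ranges of the genotypes lay largely on top of each other. The log2 fold changes were 0.04 for *Traf2* (95% CI -0.10 to 0.19, limma unadjusted p = 0.525) and 0.01 for *Map3k5* (95% CI -0.14 to 0.17, limma unadjusted p = 0.843). The sign of the *Map3k5* difference changed with the library left out and was negative with the score as a covariate. Of the 12 genes of the IRE1 to JNK branch, 1 was higher and 1 lower at the unadjusted p, beside 4.48% and 5.37% of all genes. *Map3k6*, the ASK2 kinase that pairs with ASK1, had means of 2.51 FPKM in Atf6+/+ and 3.28 FPKM in Atf6-/- libraries and a difference of 0.40 on the log2 scale (adjusted p = 0.459 by limma). *Txn1*, the thioredoxin that binds and restrains ASK1, had means of 51.7 and 44.9 FPKM and a difference of -0.20 (adjusted p = 0.428 by limma). With the score as a covariate neither had an unadjusted p of at most 0.05, with *Map3k6* at 0.16 and *Txn1* at -0.18, the latter about as large as before.

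**Figure D3:**
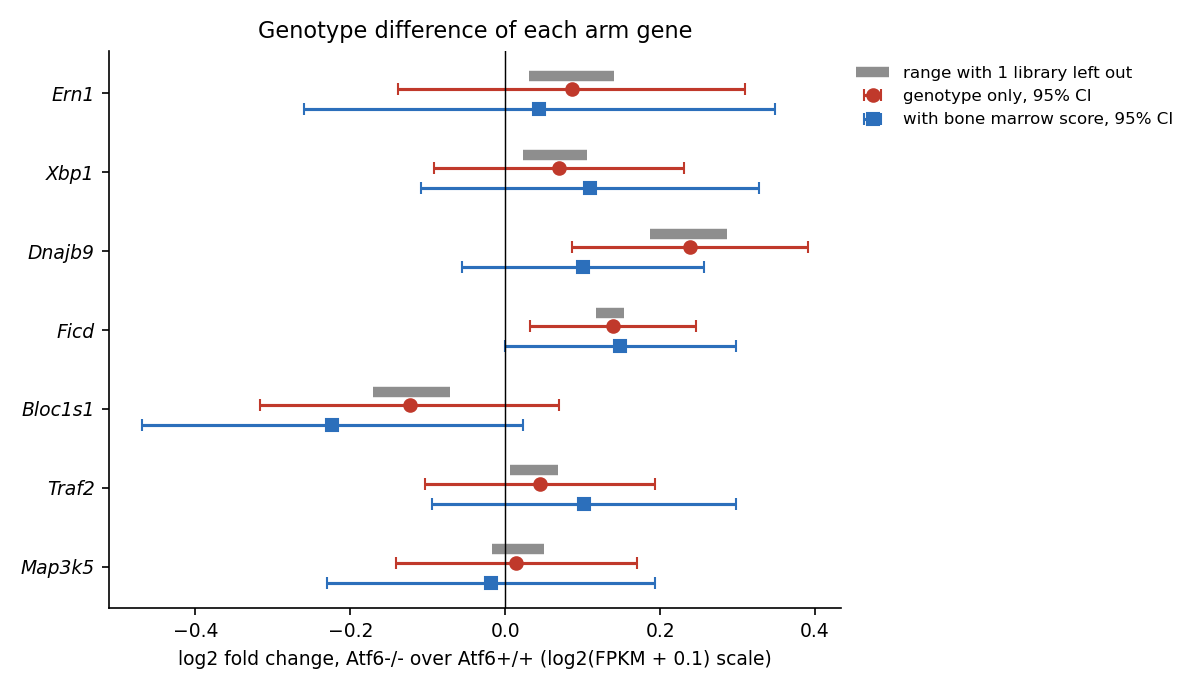
Log2 fold change (Atf6-/- over Atf6+/+) of each arm gene from limma with genotype only (circles) and with the bone marrow score as a covariate (squares), each with its 95% confidence interval, and the range of the first estimate with 1 library left out in turn (thick bars). The intervals of Dnajb9 (0.09 to 0.39) and Ficd (0.03 to 0.25) leave out 0 with genotype only, and no interval does with the score. The score itself differed between the genotypes.

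XBP1s acts through its targets, so the genes known to answer to it bear on the arm where gene-level *Xbp1* does not. They are not particular to this arm, and 3 of those listed here are also on the ATF6 list below. Of 40 known XBP1s targets, all tested, 9 were higher in Atf6-/- cochleae at the unadjusted p and none was lower, 22.5% beside the 4.48% of all genes that were higher at that p. None had an adjusted p under 0.05. The median log2 fold change of the list was 0.08, with 30 genes above 0 and 10 below. The study named *Dnajb9* and several others of this list as altered in these same libraries, so the count is not independent evidence of its direction. It tied the 12 genes with the strongest induction in its unfolded protein response panel to the PERK and ATF4 pathway. A higher target is thus not by itself a reading of XBP1s. The 4 with the smallest p, *Dnajb9* included, are named. *Sec61a1*, the pore subunit of the ER translocon, was separate between the groups, from 46.7 to 51.5 FPKM in Atf6+/+ and from 53.6 to 62.0 FPKM in Atf6-/- libraries, with a difference of 0.26 on the log2 scale (SE 0.046, adjusted p = 0.0851 by limma). *Hyou1*, an ER chaperone that is an ATF6 target too, had means of 28.8 and 33.5 FPKM and a difference of 0.22 (adjusted p = 0.350 by limma). *Srpr*, a subunit of the signal recognition particle receptor, had means of 70.0 and 78.4 FPKM and a difference of 0.16 (adjusted p = 0.374 by limma). With the score as a covariate 3 of the 40 were higher at the unadjusted p: *Sec61a1*, *Hyou1* and *Syvn1*, with log2 fold changes of 0.22, 0.26 and 0.22. These 3 are 7.5% of the list, beside 1.97% of all genes that were higher at that p in the same fit. The other 6 of the 9 had log2 fold changes from 0.04 (*Herpud1*) to 0.19 (*Sec24d*) there, and that of *Spcs2*, a signal peptidase subunit named for this value, was 0.17 in both fits. Over the list 28 genes were then above 0 and 12 below, with a median of 0.05. After rescaling to TPM 19 of the 40 were higher (47.5%, beside 8.59% of all genes), and 14 after median-of-ratios scaling (35.0%, beside 5.41% of all genes). Under TPM the genes tested had a median of 0.04 themselves.

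The genes around the sensor were sorted by what they do to it. Of 12 known regulators of IRE1, 3 were higher at the unadjusted p and none was lower: *Dnajb9*, *Ficd* and *Syvn1*, the ERAD ubiquitin ligase that turns IRE1 over. *Syvn1* ranged from 25.1 to 30.9 FPKM in Atf6+/+ and from 28.8 to 32.4 FPKM in Atf6-/- libraries, with a difference of 0.13 on the log2 scale (adjusted p = 0.480 by limma). The promoter window of *Syvn1* held 1 ERSE. The 3 higher genes are 25.0% of the list, beside 4.48% of all genes higher at that p. Only *Syvn1*, 1 of the 12, was higher once the score was a covariate, beside 1.97% of all genes. Over the whole list, 6 genes were above 0 and 6 below, with a median of -0.0039. Of the tRNA ligase complex that rejoins the cut *Xbp1* message, 5 of 6 listed genes were tested, all 5 with a difference below 0, from -0.11 to -0.02, and none at the unadjusted p. With the score as a covariate *Rtraf*, named for that value, was lower at a limma unadjusted p of 0.0308, beside the same 3.20% of all genes. The sixth symbol was not among the gene names used here.

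For scale, the lists of the other arms were read from the same fit. Of 13 ATF6 targets, 2 were higher (*Hyou1* and *Herpud1*) and 2 lower (*Hsp90b1* and *Derl3*) at the unadjusted p, beside 4.48% and 5.37% of all genes, with a median of 0.05. *Hsp90b1*, the ER chaperone GRP94, had means of 174 and 151 FPKM in the Atf6+/+ and the Atf6-/- libraries. *Derl3*, an ERAD channel protein, averaged 3.33 and 2.42 FPKM. *Herpud1*, an ERAD scaffold that is on the XBP1s list too, averaged 79.2 and 90.3 FPKM. With the bone marrow score as a covariate only *Hyou1* of these 4 had an unadjusted limma p of at most 0.05. The log2 difference of *Herpud1* was then 0.04 against 0.19 without the score, that of *Derl3* -0.16 against -0.47, and that of *Hsp90b1* -0.18 against -0.20. Of 18 PERK and ATF4 targets, 12 were higher at the unadjusted p and 3 at an adjusted p under 0.05, and none was lower, with a median of 0.37. Of all genes, 4.48% were higher at the unadjusted p and 0.068% had an adjusted p under 0.05. The 3 that passed were *Atf5*, *Fgf21* and *Shmt2*, with log2 fold changes of 0.87, 3.06 and 0.38. *Cars*, a tRNA synthetase gene, followed at 0.36 (adjusted p = 0.0729 by limma). The largest difference among the 7 arm genes, 0.24 for *Dnajb9*, was thus below the median of that list. The study had named several genes of both lists as altered in these same libraries, so their counts and medians are not an independent yardstick. With the bone marrow score as a covariate 9 of the 18 were higher and 1 lower at the unadjusted p, and 1 had an adjusted p under 0.05, beside 1.97%, 3.20% and 0.0371% of all genes in that fit. The difference between lists was not tested.

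**Figure D4:**
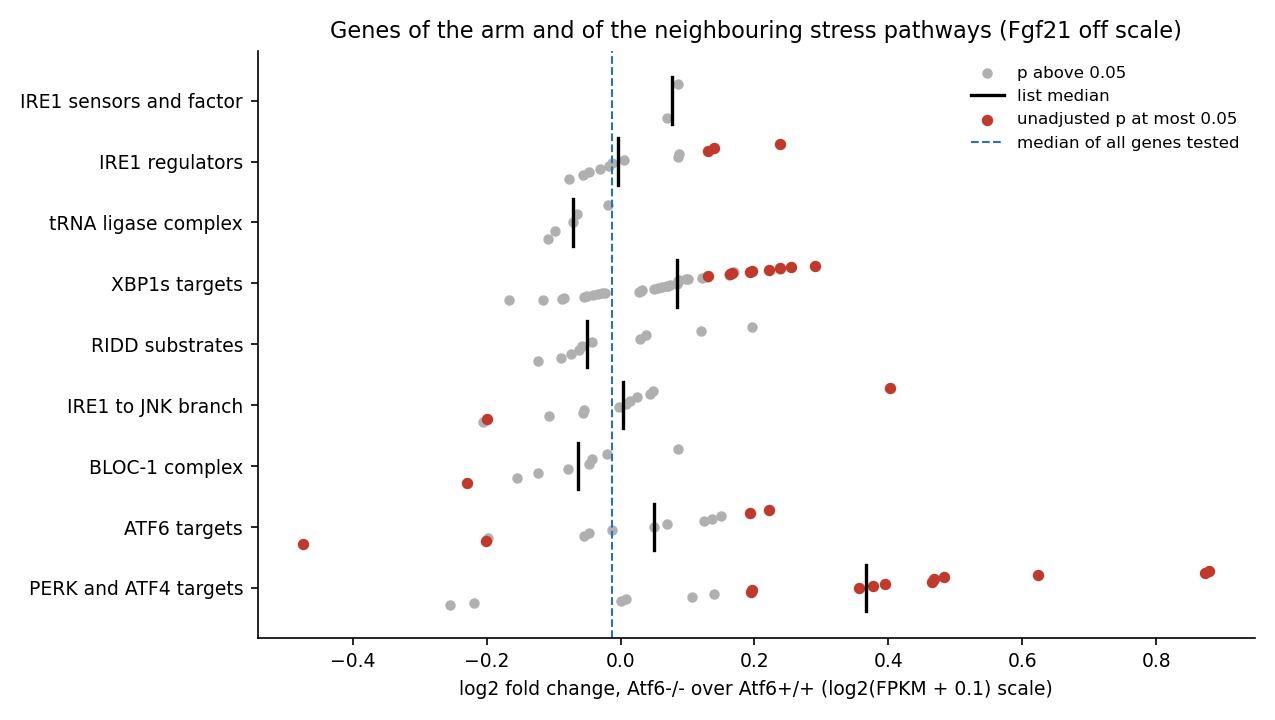
Log2 fold change (Atf6-/- over Atf6+/+) of each tested gene in 9 lists, with genes at an unadjusted limma p of at most 0.05 in red, the list medians as black bars and the median of all genes tested as a dashed line (Fgf21, at 3.06, is off scale). The XBP1s target list has its median at 0.08 and 9 of 40 genes in red, and the PERK and ATF4 list has its median at 0.37 and 12 of 18 genes in red.

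Ratios within a library do not move with the scaling between libraries. BiP (*Hspa5*) is the chaperone that ERdj4 and FICD act on. Its Atf6+/+ mean was 132 ± 17.8 FPKM (SD, n = 5) and its Atf6-/- mean 128 ± 12.8 FPKM (SD, n = 6), a difference of -0.05 on the log2 scale (95% CI -0.24 to 0.15). *Dnajb9* stood at 20.1% of the *Hspa5* level in Atf6+/+ and at 24.3% in Atf6-/- cochleae. The log2 ratio was 0.29 higher in Atf6-/- cochleae, with an overlap of the groups (exact two-sided permutation p = 0.0238, 0.0714 after adjustment over 3 ratios). *Ficd* stood at 6.45% and 7.33% of *Hspa5*, a difference of 0.19 on the log2 scale (exact p = 0.147, adjusted 0.152). *Dnajb9* stood at 42.5% and 47.5% of *Xbp1*, a difference of 0.17 (exact p = 0.152, adjusted 0.152). None of the 3 ratios passed after adjustment. Leaving out 1 library moved the ratios both ways. The difference of *Ficd* to *Hspa5* ran from 0.10, without Atf6+/+ replicate 3 (exact p = 0.338), to 0.25, without Atf6+/+ replicate 4 (exact p = 0.0810). Without Atf6+/+ replicate 2 the difference of *Dnajb9* to *Hspa5* was 0.36 (exact p = 0.00476, adjusted 0.0143) and that of *Dnajb9* to *Xbp1* was 0.25 (exact p = 0.0333, adjusted 0.05). Without Atf6+/+ replicate 3 they were 0.19 (exact p = 0.0571, adjusted 0.171) and 0.11 (exact p = 0.310, adjusted 0.338). With the bone marrow score as a covariate, an alternative chosen after seeing the data and given without a test, the differences were 0.09 for *Dnajb9* to *Hspa5*, 0.13 for *Ficd* to *Hspa5* and -0.0093 for *Dnajb9* to *Xbp1*.

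**Figure D5:**
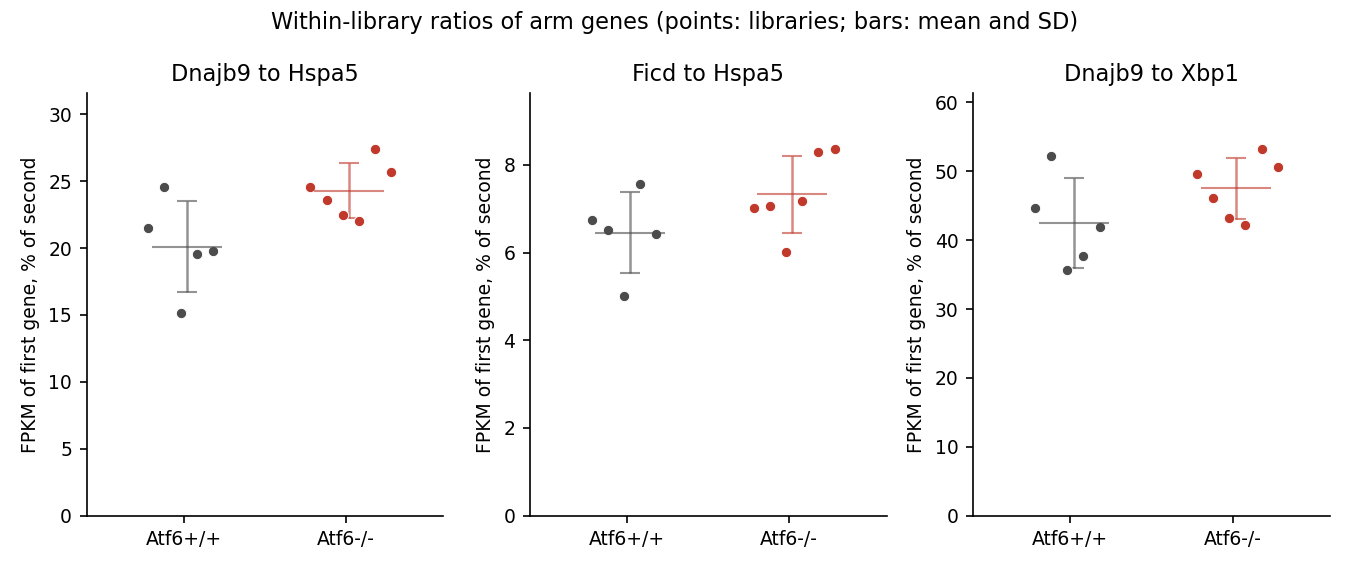
FPKM of Dnajb9 and Ficd as a percentage of Hspa5 or Xbp1 in the same library (points), with the mean and SD of each genotype (bars), on axes that start at 0. Dnajb9 averages 20.1% of Hspa5 in Atf6+/+ and 24.3% in Atf6-/- cochleae, and the groups overlap in all 3 panels.

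The order of the levels was nearly the same in all 11 libraries: *Bloc1s1*, *Xbp1*, *Dnajb9*, *Ficd*, *Traf2*, then *Ern1* and *Map3k5*. Each gene was above the next in 11 of 11 libraries, except that *Ern1* exceeded *Map3k5* in 6 of 11, so these 2 cannot be ordered. Over all libraries *Bloc1s1* averaged 131 FPKM, above 96.6% of the genes tested, and *Map3k5* 4.35 FPKM, above 34.6%. Over the 21 pairs, with the genotype means taken off, Pearson's r ranged from -0.52 to 0.45 with a median of 0.04, and 14 were above 0. No pair had an unadjusted or adjusted permutation p under 0.05. The pair with the largest Pearson's r in size over all 11 libraries, *Ern1* and *Bloc1s1*, had r = -0.52 (permutation p = 0.106, adjusted 0.696), rho = -0.52 (permutation p = 0.108, adjusted 0.756) and r = -0.52 without the 2 libraries farthest from the median of *Ern1*. *Dnajb9* and *Ficd* had r = -0.48 (permutation p = 0.134, adjusted 0.696) and rho = -0.28 (permutation p = 0.413, adjusted 0.947), and r was 0.02 without the 2 farthest libraries, so that value rests on those libraries. By Spearman's rho the largest in size was that of *Dnajb9* and *Traf2*, at -0.60 (permutation p = 0.0562, adjusted 0.756), with r = -0.49 (permutation p = 0.123, adjusted 0.696) and r = -0.38 without the 2 farthest libraries. Without the 2 farthest, *Ern1* and *Ficd* (r = 0.73), *Ern1* and *Xbp1* (r = -0.70) and *Traf2* and *Map3k5* (r = 0.57) stood above these pairs in size, so the order of the pairs depended on the measure. *Xbp1* and *Dnajb9* had r = 0.04 and rho = 0.04 (permutation p = 0.918 and 0.923, adjusted 0.995 and 0.947).

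The nearest patterns lay outside the 7 genes. Among 13604 genes whose mean reached 1 FPKM, and with the genotype means taken off over the 11 libraries, *Ern1* was nearest to *Igf2bp2*, *Senp1* and *Msh6*, with r of 0.96, 0.93 and 0.93. *Xbp1* was nearest to *Cdkn2aipnl* (r = 0.97), the ATF6 target *Manf* (r = 0.94) and *Taf12* (r = 0.94). *Dnajb9* was nearest to *Nampt*, *Inca1* and *Tmem167b*, with r of 0.94, 0.93 and 0.92. *Ficd* was nearest to *Aldh1b1*, *Bcar1* and *Vars2*, with r of 0.81, 0.80 and 0.78, the lowest of the 5 genes searched. *Bloc1s1* was nearest to *Nme2*, *Rps20* and *Tmed9*, with r of 0.97, 0.95 and 0.95. These values are the highest of 13604 over the same 11 libraries and are given as a description.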

How the data were processed

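RNA-Seq was done on 5 Atf6+/+ and 6 Atf6-/- whole cochleae, 1 library each. According to the study's methods, RNA was purified on RNeasy columns, and strand-specific mRNA libraries were read on the BGI DNBSEQ platform as paired-end 100 bp reads, with a stated depth of 30 M reads. Alignment by the authors used HISAT2 2.0.4 and the GRCm39 assembly. They estimated expression with RSEM (1.2.18 in the methods, 1.2.12 in the submitters' processing notes) and used DESeq2 1.4.5. The deposited values are FPKM per gene, with 2 decimals. With no read counts in use, the depth of each library is unknown and counting error could not be given. FPKM summed to between 474616 and 537926 in Atf6+/+ and between 462005 and 502419 in Atf6-/- libraries.

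A gene was kept if its 11 libraries averaged 0.1 FPKM or more. The log2(FPKM + 0.1) values were fitted in limma 3.58.1 under R 4.3.3, with the variance trend on and genotype as the only term, two-sided, with Benjamini-Hochberg adjustment. This took the place of the study's count model because no counts were used. Single values were tested by enumeration of all 462 splits (exact, two-sided), and correlations by 100000 permutations. The sources used here do not say whether any of these cochleae shared an animal, and p-values measure only the spread between these libraries, which may be technical. Scripts were tested on simulated data. The 7 genes, the gene lists and the tests were chosen with earlier results of these data known. Named genes are the 7, *Atf6*, *Hspa5* and up to 4 genes per list at an unadjusted p of at most 0.05 by smallest p. The 3 genes nearest in pattern to each of 5 of the 7 are named too. Named besides, after their values were seen, are *Ern2* and *Rdh5* and, for values with the bone marrow score, *Syvn1*, *Sec24d*, *Spcs2*, *Scara3* and *Rtraf*. Libraries were not paired by replicate number. Alternatives were pseudocounts of 1 and 0.01, other filters, a replicate block, scaling to TPM or by median of ratios, robust variance, the bone marrow score and leaving out each library. The correlation with the bone marrow score, and the score as a covariate of the ratios, were added after the values were seen. Sequences come from GENCODE vM21 and RefSeq on GRCm38, not the authors' GRCm39. Other steps ran in Python 3.11.15 (scipy 1.17.1, numpy 2.4.6, matplotlib 3.10.9, pandas 2.3.3).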

Additional observations from a re-analysis of the deposited data

How the results depend on the processing

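With each library left out in turn, *Dnajb9* stayed between 0.19 and 0.29 and *Ficd* between 0.12 and 0.15 on the log2 scale, at an unadjusted limma p of at most 0.05 in all 11 fits. *Map3k5* ran from -0.0177 to 0.0505 in these fits and in the exact test. The ranges were 0.02 to 0.11 for *Xbp1*, 0.03 to 0.14 for *Ern1*, 0.01 to 0.07 for *Traf2* and -0.17 to -0.07 for *Bloc1s1*, none at the unadjusted p in any of these fits. Under TPM *Ern1* was 0.14, *Xbp1* 0.13, *Traf2* 0.10 and *Bloc1s1* -0.07. No member had an adjusted p under 0.05 under any alternative. With the bone marrow score 0 of the 7 genes were at the unadjusted p, where *Dnajb9* was 0.10, *Ficd* 0.15 and *Map3k5* -0.0184, and 3 XBP1s targets were higher. Of all genes, 1.97% were higher and 3.20% lower at the unadjusted p in that fit. In a fit with a replicate block 1 of the 7 was at that p, with *Ficd* at 0.13 (unadjusted p = 0.0788) and *Map3k5* at -0.0036. The labels do not say whether the replicate numbers pair the libraries. Same-numbered libraries correlated between -0.21 and 0.12, and 1 of 5 Atf6+/+ libraries was closest to its own number. These values show no pairing but cannot exclude one. XBP1s targets that were higher numbered 19 after TPM and 14 after median-of-ratios scaling, beside 9, and 0 members then had groups without overlap. With a library left out that last count ran from 1 to 2 and the count of lower XBP1s targets from 0 to 1 (1 without Atf6-/- replicate 2 or 3). In the JNK branch the higher count ran from 0 to 1 and the lower from 1 to 2, and the lower count of RIDD substrates from 0 to 1. Over all genes, from 3.24% to 5.39% were higher and from 3.82% to 6.14% lower at the unadjusted p with a library left out. The log2 ratio of *Dnajb9* to *Hspa5* ran from 0.19 to 0.36 and that of *Dnajb9* to *Xbp1* from 0.11 to 0.25. With the bone marrow score, added after seeing the data, they were 0.0863 and -0.0093. The median over all genes was -0.01, and 0.04 under TPM. The cause of these changes was not tested. Without counts, counting error cannot be set apart from the spread between libraries, and gene-level FPKM does not separate spliced from unspliced *Xbp1*.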
